A study of Homo sapiens with 2 samples.

Results

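The transcription factors SNAI1, SNAI2 and ZEB1 drive the epithelial-mesenchymal transition (EMT), and GRHL1, GRHL2, GRHL3, OVOL1, OVOL2, ESRP1 and ESRP2 work against it in epithelial cells. These 10 genes were taken by symbol from the deposited gene table, and all 10 were found among its 46732 genes. RNA had been sequenced from secondary mammospheres of T47D, a human breast cancer cell line of luminal type that expresses the estrogen receptor. Mammospheres are spheres that cells form when they cannot attach to the dish. Here cells were kept 7 days as primary spheres, dissociated, and kept another 7 days. The 2 groups were control cells and cells labelled CIC knockdown, CIC being a DNA-binding repressor of ETV4, ETV5 and other genes below ERK signalling, and the comparison asks how expression differs between them. Both groups are the same line in the same medium, no drug is named, and neither the means of knockdown nor the control construct was stated in the sources used. The series' design text mentions duplicates, yet the labels and the tables hold 1 sample per group. Every value below therefore describes 2 libraries, with no replicate error and no test.

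EMT factors are zinc finger repressors that bind E-box motifs in the promoters of E-cadherin and other junction genes and shut them off. GRHL proteins activate such junction genes, OVOL proteins repress EMT factors, and ESRP proteins bind RNA and set epithelial splicing of genes such as FGFR2 and CD44. ZEB factors and the microRNAs of the miR-200 family repress each other, and GRHL2 and ZEB1 do likewise, so a cell tends to hold one side high and the other low.

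Depth was 47099221 counts for the control and 68420805 for the knockdown-labelled library, a ratio of 1.45. CIC mRNA itself had 607 and 872 counts, for a ratio of 0.980 after scaling (95% interval 0.882 to 1.09), so the RNA level does not show the knockdown and the library is named here by its label only. The known CIC targets ETV4 and ETV5 were 4.69-fold and 4.97-fold higher in the knockdown-labelled library. All 10 luminal markers searched, among them ESR1, GATA3 and KRT8, were measured, with summed levels, mostly of keratins, of 8996 and 9014 TPM (a share of all transcripts, corrected for length). By counting intervals, explained below, 3 of these 10 markers were higher, PGR most at 2.07-fold, and 5 were lower. Of all measured genes, 32% were higher and 26.6% lower by the same rule. The median log2 ratio of the luminal markers was -0.005. In spheres measured in bulk, fewer cells of a type and less RNA per cell cannot be told apart.

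Both libraries were strongly epithelial in these genes. Of the 10, GRHL2 (101492439 to 101678104), ESRP1 (94640999 to 94707466) and SNAI2 (48917598 to 48921429, minus strand) lie on chromosome 8, GRCh38, and the others on 6 further chromosomes. The TPM scale allows levels of different genes to be compared. In the control library ESRP1 was highest at 34.7 TPM, followed by GRHL2 at 32.9, ESRP2 at 15.2, GRHL1 at 13.2 and OVOL1 at 9.13 TPM. GRHL3 at 2.71 TPM, OVOL2 at 1.22, SNAI1 at 0.693, SNAI2 at 0.238 and ZEB1 at 0.0918 TPM closed the order. In the knockdown-labelled library the order of the first 8 genes was the same, and ZEB1 at 0.155 TPM stood above SNAI2 at 0.104 TPM. Those last 2 genes rest on 15 to 69 counts in a library, so their order is not firm. The 7 epithelial genes summed to 109 TPM in the control and 119 TPM in the other. The 3 EMT factors summed to 1.02 and 1.27 TPM. The epithelial sum was thus 107 times the EMT factor sum in the control and 93.2 times in the knockdown-labelled library. Among the 15303 genes with at least 50 counts in at least 1 library, called measured here, 87.3% lay below ESRP1 and 86.6% below GRHL2 in the control, while 0.738% lay below ZEB1.

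**Figure D1:**
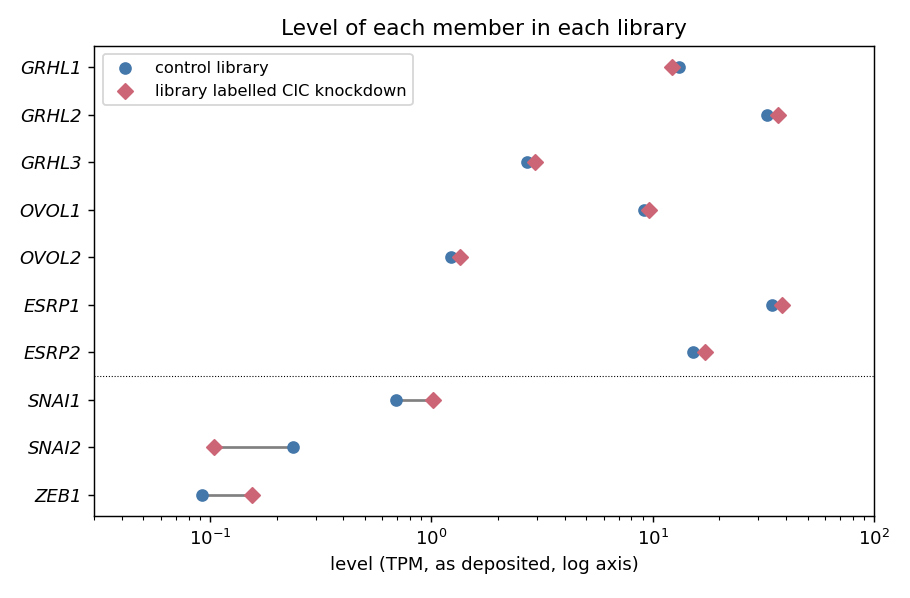
Level of each gene in TPM as deposited (log axis), with a circle for the control library and a diamond for the knockdown-labelled library; the dotted line parts the 7 epithelial genes from the 3 EMT factors. All 7 epithelial genes lie above 1 TPM in both libraries, and the EMT factors lie between 0.0918 and 1.01 TPM.

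Between the libraries, the log2 ratios of the 7 epithelial genes ran from -0.17 to 0.12, and those of SNAI1, SNAI2 and ZEB1 were 0.50, -1.11 and 0.58 on 15 to 115 counts in a library. Ratios are of the knockdown-labelled library over control, from counts scaled to library size, and each interval is an exact 95% interval for counting error only. By that interval 3 of the 10 genes were higher (ESRP1, ESRP2 and SNAI1), 3 were lower (GRHL1, GRHL2 and SNAI2) and 4 overlapped a ratio of 1. Of all measured genes, 32% were higher by the same rule and 26.6% were lower, so these shares are near the background. No gene of the 10 was at least 1.5-fold higher with its interval above 1, a size that 5.52% of measured genes reached and 10.4% in either direction. SNAI2 alone was at least 1.5-fold lower with its interval below 1, against 4.87% of measured genes. It was past 2-fold too, as were 3.48% of measured genes in either direction. It had 24 and 15 counts and was the only gene of the 10 short of 50 counts in both libraries. SNAI2 is therefore not among the measured genes that give these shares, which are no background for a gene of so few counts. The median log2 ratio of the 10 genes was 0.08, beside 0.02 over all measured genes.

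**Figure D2:**
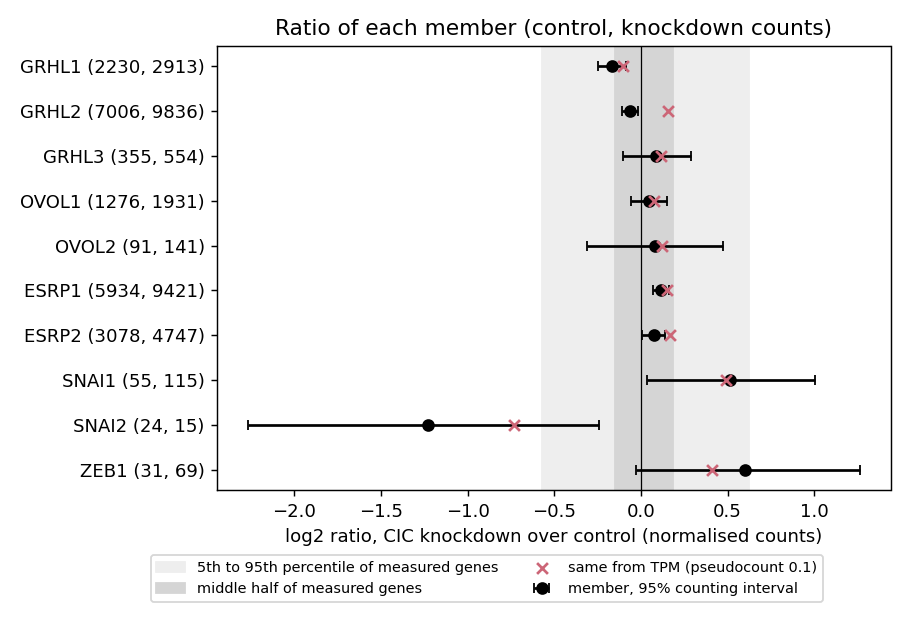
Log2 ratio of the knockdown-labelled library over control for each gene, from scaled counts with no added count (points, bars are 95% counting intervals) and from TPM with a pseudocount of 0.1 (crosses); dark and light bands span the 25th to 75th and the 5th to 95th percentile of 15303 measured genes. The 7 epithelial points lie close to 0 in or beside the dark band, SNAI2 lies outside the light band, and the cross of GRHL2 is on the other side of 0 from its point.

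The grainyhead-like factors bind the motif AACCGGTT and keep junction and barrier genes active. GRHL1 (chromosome 2, 9951693 to 10002279 on GRCh38, plus strand) had 2230 counts in the control and 2913 in the knockdown-labelled library. That gave a ratio of 0.891 (0.843 to 0.942), or -0.17 on the log2 scale, and GRHL1 was lower on TPM too, at 13.2 and 12.2. The interval also stayed below 1 with counts halved, the case in which both reads of a pair had been counted.

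GRHL2, the main grainyhead-like factor of breast epithelium, had 7006 and 9836 counts, for a ratio of 0.958 (0.929 to 0.988). With halved counts that interval reached 1. On TPM the direction was the opposite, 32.9 in the control and 36.8 in the knockdown-labelled library. The direction of GRHL2 therefore depends on the unit. The division of counts among its transcript models moved at the same time. A 5292-base model held 56.6% of its counts in the control and 18.7% in the other, while a 4086-base model held 30.1% and 58.9%. Whether that shift accounts for the opposite directions was not tested. GRHL2 gave 67.5% of the summed TPM of the 3 grainyhead-like genes in the control and 70.8% in the other.

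GRHL3, best known for skin barrier formation and neural tube closure (chromosome 1, 24319333 to 24364482), had 355 and 554 counts. Its ratio of 1.06 had an interval from 0.930 to 1.22, so no difference was detectable at this depth. A start site at position 24319357 carried 86.2% of its counts in the control and 92.2% in the other. The 250 bases before that start (GRCh38.p14, chr1:24319107-24319356, plus strand, from RefSeq) are shown because most GRHL3 counts come from models that begin there, with capitals marking an E-box (CAGGTG or its reverse complement CACCTG) 21 bases before the start.
GRHL3: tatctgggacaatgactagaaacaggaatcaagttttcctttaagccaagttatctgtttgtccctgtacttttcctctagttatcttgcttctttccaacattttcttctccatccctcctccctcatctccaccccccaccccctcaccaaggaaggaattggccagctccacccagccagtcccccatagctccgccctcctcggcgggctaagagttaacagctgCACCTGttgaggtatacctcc

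That E-box, the motif which SNAI and ZEB proteins bind, occurs on either strand in 17.5% of 35116 RefSeq promoter windows of the same length. The reference held promoter windows of 3 of the 10 genes, GRHL1, GRHL3 and ZEB1, with 10 windows in all. An E-box was found in 3 of them. The CIC octamers TGAATGAA and TGAATGGA were found in 0 of the 10 windows, beside 1.4% and 0.832% of all windows, and the GRHL motif AACCGGTT also in 0, beside 0.117%. A match is a description of letters and not of binding.

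Division of counts among transcript models was least alike for GRHL1. The share that moved, which is the part of a gene's counts that would have to change model to turn the control division into the other, was 84.1%. Models of 3606, 3673 and 3709 bases held 36.7%, 33% and 28.7% of GRHL1 counts in the control. They held 5.6%, 4.39% and 4.33% in the knockdown-labelled library. Models of 3485 and 3655 bases had 0 counts in the control, and 964 and 875 in the other. Those models begin at position 9951701 and the earlier ones at 9951693 or 9951698, only a few bases away. The share moved was 37.9% for GRHL2, 36.3% for ESRP2 and 35.7% for ZEB1. For OVOL1, ESRP1, GRHL3 and OVOL2 it was 10.6%, 9.3%, 7.13% and 1.67%. Such shares come from an estimate that divides coverage among overlapping models, and the error of that division is not in the files.

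**Figure D3:**
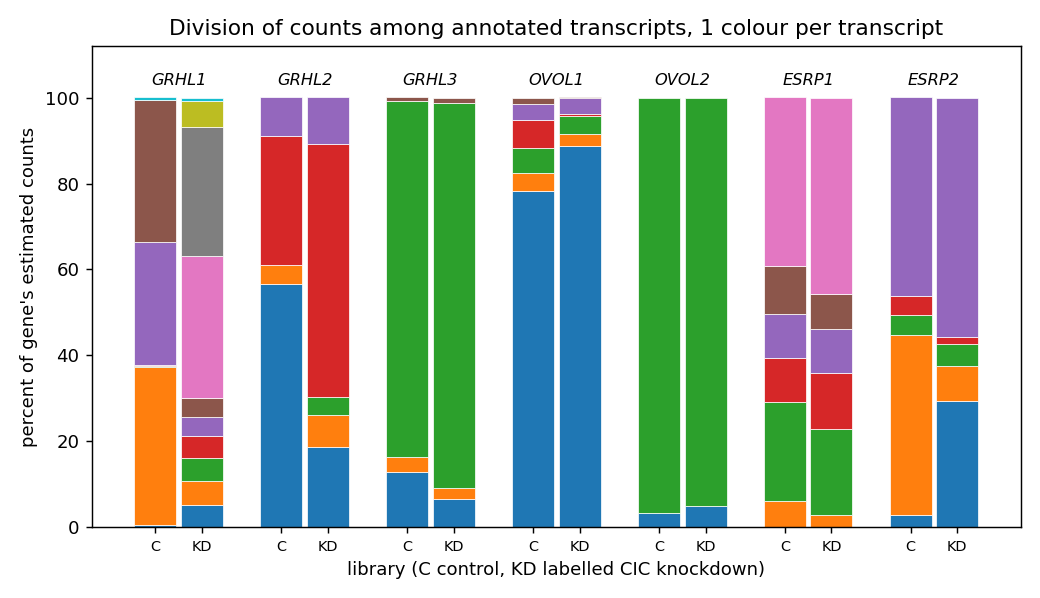
Percent of each epithelial gene's estimated counts given to each of its annotated transcript models (1 colour per model within a gene), for the control library (C) and the knockdown-labelled library (KD). GRHL1 is divided among other models in the second library, GRHL2 and ESRP2 change their leading models' shares, and OVOL2 and GRHL3 keep 1 leading model.

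The OVO-like zinc finger factors, which repress ZEB1 and other EMT genes, were at like levels in the 2 libraries. OVOL1 (chromosome 11, 65787063 to 65797219) had 1276 and 1931 counts, for a ratio of 1.03 (0.961 to 1.11). An antisense gene, OVOL1-AS1, overlaps it and had 0 and 8 counts. OVOL2 (chromosome 20, 18024152 to 18059188, minus strand) had 91 and 141 counts, for a ratio of 1.06 (0.806 to 1.39). An interval that wide leaves differences of up to 1.39-fold undetectable. OVOL1 supplied 88.2% of the summed OVOL TPM in the control and 87.8% in the other. OVOL3, the remaining family member, had 3 counts in the control and 0 in the other, too few for a fold.

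The splicing factors ESRP1 and ESRP2 were slightly higher in the knockdown-labelled library. ESRP1 had 5934 and 9421 counts, for a ratio of 1.08 (1.05 to 1.12), and 34.7 and 38.5 TPM. Its interval stayed above 1 with halved counts. ESRP2 (chromosome 16, 68225968 to 68236175, minus strand) had 3078 and 4747 counts, for a ratio of 1.05 (1.005 to 1.10), and 15.2 and 17.2 TPM. Its interval included 1 with halved counts. NFATC3, on the opposite strand, overlaps its end and had 1263 and 2032 counts, and no source used here says whether the counting used strand. ESRP1 made up 69.5% of the summed ESRP TPM in the control and 69.2% in the other.

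SNAI1 (Snail), the zinc finger repressor of E-cadherin, had the highest level of SNAI1, SNAI2 and ZEB1. It lies on chromosome 20 from 49982980 to 49988886 and had 55 counts in the control and 115 in the knockdown-labelled library. The ratio was 1.43 (1.03 to 2.004), with 0.693 and 1.01 TPM. With halved counts its interval included 1. SNAI2 (Slug), its paralog, went the other way. It had 24 and 15 counts, for a ratio of 0.426 (0.208 to 0.847), and again the interval included 1 with halved counts. SNAI3 had 57 and 98 counts, for a ratio of 1.17 (0.838 to 1.66).

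ZEB1 (chromosome 10, 31318417 to 31529814, plus strand) had 31 and 69 counts, for a ratio of 1.52 with an interval from 0.980 to 2.40. No difference was therefore detectable at this depth. Of its 44 transcript models, 5 had a count. The start site at position 31318417 carried 12 and 28 of those counts and the start at 31318818 carried 3 and 30. The antisense gene ZEB1-AS1, which overlaps the ZEB1 start, had 200 and 323 counts, more than ZEB1 itself in each library. Without a statement on strand, reads of the pair cannot be told apart. ZEB2, the paralog of ZEB1, had 0 counts in both libraries. The 250 bases before the first ZEB1 start (GRCh38.p14, chr10:31318167-31318416, plus strand, from RefSeq) are shown because that start carried the most counts in the control, with capitals marking an E-box 57 bases before it.
ZEB1: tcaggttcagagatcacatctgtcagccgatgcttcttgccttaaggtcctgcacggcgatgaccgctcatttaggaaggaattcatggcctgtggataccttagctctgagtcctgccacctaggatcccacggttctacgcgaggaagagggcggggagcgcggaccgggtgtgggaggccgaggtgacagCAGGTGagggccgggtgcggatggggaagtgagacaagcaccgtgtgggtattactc

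The miR-200 family and miR-205 repress ZEB1 through its 3′ UTR. Their mature sequences from RefSeq are given to show the shared seeds, in capitals (bases 2 to 8).
hsa-miR-200b-3p: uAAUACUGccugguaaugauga
hsa-miR-200c-3p: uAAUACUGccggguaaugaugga
hsa-miR-429: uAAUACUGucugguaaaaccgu
hsa-miR-200a-3p: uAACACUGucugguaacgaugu
hsa-miR-141-3p: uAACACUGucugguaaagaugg
hsa-miR-205-5p: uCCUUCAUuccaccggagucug

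The first 3 share the seed AAUACUG, miR-200a-3p and miR-141-3p share AACACUG, and miR-205-5p has its own. The ZEB1 3′ UTR, 2549 bases long in GENCODE release 29, holds 6 matches to the first seed, 3 to the second and 1 to the third. Among 4333 UTRs cut to that length, 27.2%, 30.3% and 18.7% held at least 1 match to each. As many as 6 matches to the first seed occurred in 0.0231% of them and as many as 3 to the second in 0.969%. The UTR of ZEB1 is itself among the 4333, and it alone makes up the 0.0231%. The first match of each kind is printed with its flanks, on GRCh38 at chr10:31527623-31527649, chr10:31528036-31528062 and chr10:31528072-31528098, with the seed match in capitals.
ZEB1 site for miR-200b, miR-200c and miR-429: tttatcttatCAGTATTatcactctta
ZEB1 site for miR-200a and miR-141: tcatcagaatCAGTGTTtgtgattgtg
ZEB1 site for miR-205: gtggtaacatATGAAGGatatgacatg

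Mature microRNAs were not measured by these libraries, and the hairpin genes had 2 to 27 counts each. Of the host genes, MIR200CHG, which carries miR-200c and miR-141, had 444 and 472 counts, for a ratio of 0.725 (0.636 to 0.827), and 27.3 and 20.3 TPM. MIR205HG, the miR-205 host, had 14 and 89 counts, for a ratio of 4.34 (2.45 to 8.25), and 0.320 and 1.37 TPM. The host of miR-200c was thus lower in the knockdown-labelled library, and that of miR-205 higher from a low level.

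Some genes that ESRP proteins splice have transcript models that tell the epithelial form from the mesenchymal one, although the counts are again an estimated division. CTNND1, a catenin that holds E-cadherin at junctions, is read in epithelial cells from coding start 3 and in mesenchymal cells from coding start 1. Models with coding start 3 held 88.4% (87.5 to 89.3) of 5015 counts in the control and 82.9% (82.0 to 83.8) of 6757 in the other. Coding start 1 held 6.88% (6.19 to 7.62) and 9.01% (8.34 to 9.72), and coding start 2 held 4.71% and 8.07%. The epithelial form was dominant in both libraries, and its share was lower in the knockdown-labelled library by more than counting error.

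CD44, the hyaluronan receptor, carries variable exons in epithelial cells and loses them in the standard form. The model with 3 variable exons (v8 to v10) held 61.1% (57.5 to 64.6) of its 738 counts in the control and 54.3% (50.7 to 57.8) of 781 in the other. The standard form held 10% and 11.8%, with intervals of 7.96 to 12.4 and 9.60 to 14.3. The other CD44 counts went to models not assigned to either form. The intervals of the 2 libraries overlap for the standard form, and for the variable form only between 57.5 and 57.8. Overlap of separate intervals does not show that the shares are equal, and their difference was not tested. CD44 as a whole was lower, with a ratio of 0.722 and 3.77 and 2.92 TPM.

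ENAH, an actin regulator whose 63-base exon (chromosome 1, 225504991 to 225505053) is an epithelial form, had 154 and 243 counts in the model with that exon and 140 and 156 in the model without it. These are few of its 6357 and 6997 counts, most of which went to models not assigned to a form. FGFR2 is read as a IIIb form in epithelium and a IIIc form in mesenchyme. Models with the IIIb exon had 5 and 75 counts and models with the IIIc exon 8 and 25, of 456 and 724 in all. The rest of the FGFR2 counts were in predicted models that were not classed, so the ratio of the forms is not known for the gene as a whole.

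**Figure D4:**
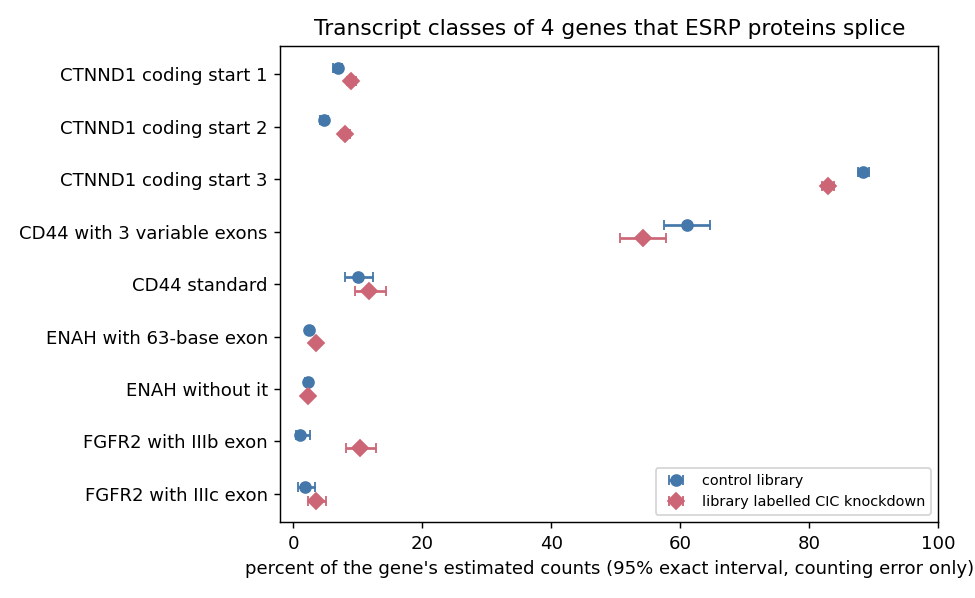
Percent of a gene's estimated counts held by transcript classes of 4 genes that ESRP proteins splice, with exact 95% intervals for counting error, in the control (circles) and the knockdown-labelled library (diamonds). CTNND1 models with coding start 3 lie at 88.4% and 82.9% with separate intervals, and the classed models of ENAH and FGFR2 hold only a small part of their genes' counts.

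As whole genes, 2 of 18 measured ESRP splicing targets were higher by the interval rule and 8 were lower, beside the background of 32% higher and 26.6% lower among all measured genes, with a median log2 ratio of -0.06. The 4 with the largest absolute log2 ratios were all lower, namely CD44, ENAH (0.751), GIT2 (0.843) and SLK (0.850). SCRIB, which encodes a cell polarity scaffold, was higher at 1.18. Of 11 measured splicing factors that act on the same exons, 3 were higher and 6 lower (background 32% and 26.6%), with a median of -0.08. RBFOX2, which promotes mesenchymal splicing of several such exons, had 3880 and 4082 counts, for a ratio of 0.718 whose interval began at 0.687. QKI and CELF1 were lower as well, at 0.844 and 0.854, and PTBP1 was higher at 1.17.

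Of 20 genes that GRHL proteins activate, all measured, 8 were higher, 7 lower and 5 overlapped 1 (background 32% and 26.6%), with a median log2 ratio of 0.04. CDH1, which encodes E-cadherin, had 25834 and 41577 counts, for a ratio of 1.10 (1.08 to 1.11), and 116 and 130 TPM. ST14, the protease matriptase, was higher at 1.15 and TMEM125 at 1.20. RAB25, a trafficking GTPase of epithelia, was lower at 0.854, as was the desmosome linker DSP at 0.841. Of 24 genes repressed by SNAI or ZEB proteins, a list that shares CDH1, RAB25, DSP and others with the first, 8 were higher, 9 lower and 7 overlapped 1 (background again 32% and 26.6%), with a median of 0.04. This second list also holds ESRP1 itself, among its higher genes. In it CLDN1, a tight junction claudin, had the highest ratio on few counts, with 43 and 96 (1.52, from 1.05 at the low end). MUC1, the surface mucin, was lower on counts at 0.647, yet its TPM was 3.38 and 3.63, the opposite direction.

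Of 12 measured members of a list of 18 other epithelial factors, 1 was higher, 6 were lower and 5 overlapped 1 (background 32% and 26.6%), with a median of -0.065. FOXA1, the pioneer factor of luminal cells, was the higher one at 1.13 (7241 and 11992 counts). ELF5, a factor of milk-secreting luminal cells, was at 0.734 and EHF, an epithelial ETS factor, at 0.776. TFAP2A had 59 and 108 counts and a ratio of 1.25 that overlapped 1.

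Of 19 other EMT factors, 9 were measured, and ZEB2, TWIST2, PRRX1, FOXC2, TCF4 and TBXT had 0 counts in both libraries. TWIST1 had 0 counts in the control and 17 in the knockdown-labelled library. With a floor of 3 counts put in for the control it was 3.86-fold higher, and the exact interval of its ratio began at 2.81. FOXC1 had 203 and 483 counts, for a ratio of 1.62, and among the 9 measured genes it alone was past 1.5-fold. TCF3, which encodes the E-box proteins E12 and E47, was at 1.46 with 1369 and 2923 counts, and KLF8 at 1.38 with 130 and 263. GSC was at 1.18 with an interval that included 1. In all, 3 of the 9 were higher, 2 lower and 4 overlapped 1, with a median log2 ratio of 0.22. The background is 32% higher and 26.6% lower. In the deposited table with assembled transcripts, 6 of the 9 were higher and 0 lower, so the list's counts depend on the table.

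Genes that mark mesenchymal cells were mixed. Of 28, 17 were measured, with 5 higher, 4 lower and 8 overlapping 1 (background 32% and 26.6%) and a median log2 ratio of 0.10. COL3A1, a fibrillar collagen, had 2384 and 8415 counts, for a ratio of 2.41 (2.30 to 2.52), and 9.38 and 23.1 TPM. COL1A1 was at 1.98 with 58 and 168 counts and COL5A2 at 1.82 with 686 and 1826. By size and interval, 3 of the 17 were at least 1.5-fold higher and 2 at least 1.5-fold lower. Among all measured genes these shares were 5.52% and 4.87%. VIM, which encodes vimentin, had 339 and 516 counts, for a ratio of 1.04 (0.903 to 1.19), and CDH2, which encodes N-cadherin, 13 and 0. With a floor of 3 counts put in for the knockdown-labelled library CDH2 was 6.35-fold lower, and the exact interval of its ratio ended at 0.224. Of 10 fibroblast markers, which include COL1A1 and COL3A1, 3 were measured. The third, LUM, a matrix proteoglycan, was lower, with 550 and 432 counts, for a ratio of 0.536 (0.471 to 0.609). The markers' summed level was 14.1 and 26.0 TPM, of which COL3A1 gave 9.38 and 23.1, and COL1A2, PDGFRA, PDGFRB, THY1, FAP and POSTN had 0 counts in both libraries. None of 6 endothelial and 7 leukocyte markers was measured.

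**Figure D5:**
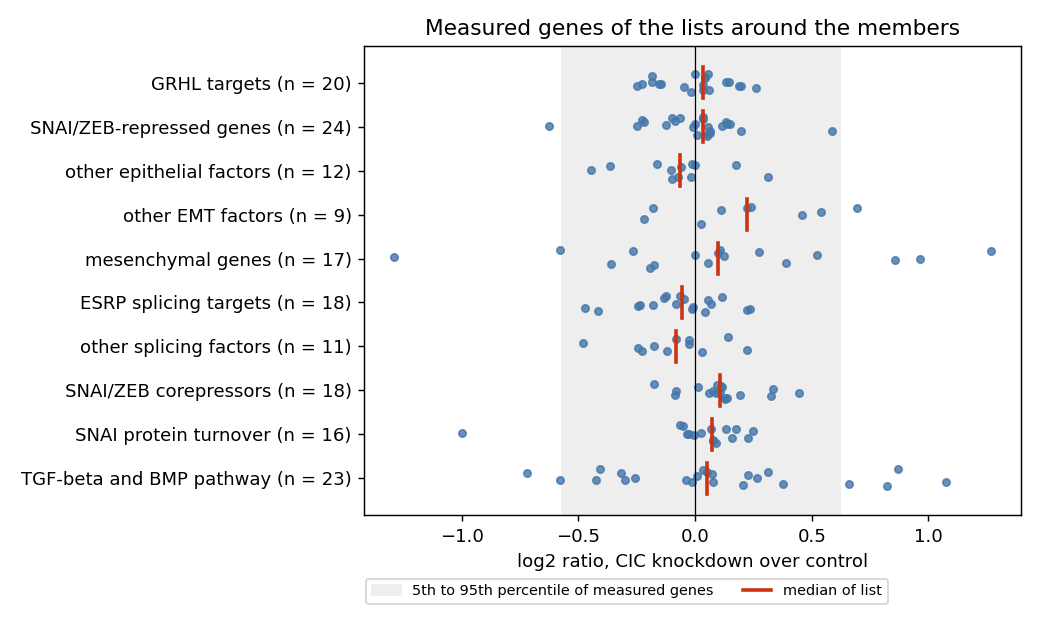
Log2 ratio of the knockdown-labelled library over control for each measured gene (points, 1 row per list) with the list's median (red line), over the 5th to 95th percentile of 15303 measured genes (band). Points of the GRHL targets lie inside the band, and the mesenchymal and TGF-beta lists have points on either side of it.

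Of 18 corepressors that SNAI or ZEB proteins recruit, all measured, 14 were higher by the interval rule (background 32% and 26.6%), 2 lower and 2 overlapped 1, with a median log2 ratio of 0.11, a difference of small size. WTIP, a LIM protein, had a ratio of 1.36, SUV39H1, a histone methyltransferase, 1.26, the DNA methyltransferase DNMT1 1.25 and EHMT2 1.14. None reached 1.5-fold. Of 16 genes that control SNAI protein by phosphorylation or breakdown, 7 were higher, 2 lower and 7 overlapped 1 (background 32% and 26.6%), with a median of 0.07. PRKD1, a kinase that phosphorylates SNAI1, was lower at 0.492 with 97 and 70 counts. The kinases PAK1 and CSNK1D were at 1.19 and 1.13, and the ubiquitin ligase subunit FBXL14 at 1.17 overlapped 1.

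TGF-beta signalling is the usual inducer of SNAI and ZEB genes. Of 23 measured genes of the TGF-beta and BMP pathway, 9 were higher, 7 lower and 7 overlapped 1 (background 32% and 26.6%), with a median log2 ratio of 0.05. The ligand TGFB2 had 16 and 52 counts, for a ratio of 2.22, and the ligand TGFB3 had 841 and 748, a ratio of 0.607. TGFBR3, the coreceptor betaglycan, was at 1.85 with 75 and 203 counts. SMAD6, an inhibitor of the pathway, was at 1.77 with 882 and 2287 counts.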

How the data were processed

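RNA-seq libraries of 2 samples were compared, with samples grouped by the labels' genotype. Per the submitters' processing notes, the authors used Trimmomatic, HISAT2 and StringTie with GRCh38, and roles, versions and strand setting are not given in the sources used here. Per the file headers, each gene has a deposited read count, FPKM and TPM. The counts are estimated counts, whole as deposited. From them TMM-scaled ratios were computed with edgeR 4.0.16 (R 4.3.3), log2 ratios with a prior count of 2, and exact Clopper-Pearson 95% intervals conditional on the summed count with scipy 1.17.1. These cover counting error only, since each group has 1 library and gives no replicate error. They treat counts as independent molecules, which PCR copies are not. FPKM and TPM entered as log2(value + 0.1) in alternatives. Genes with at least 50 counts in 1 library were called measured. The tables pair symbols with RefSeq models, whose exons were matched to GENCODE release 29. The computation of ratios and their intervals was tested on simulated counts that held counting error only.

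The 10 genes and 12 lists were chosen with earlier results of these data known. Named genes were the 10, CIC, ETV4, ETV5, up to 4 per list with the largest absolute log2 ratio, 4 genes for transcripts, and single genes such as CDH1 and VIM whatever their values. A gene that this rule names is not reported here. PGR, LUM and SCRIB were named after their values were seen. Alternatives changed the scaling, unit, filter, prior count and transcript table, or halved the counts.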

Additional observations from a re-analysis of the deposited data

Results flagged for a closer look

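Beside the annotated models, the authors' table of assembled splice variants lists a variant of ESRP1 and a variant of ESRP2, a signal in data that no comparison above used. The ESRP1 variant, with 13 exons, had 3003 counts in the control and 4271 in the knockdown-labelled library, or 38.8% and 35.2% of the counts then given to the gene. Of its 12 junctions, 1 is not in the matched annotated models. Its exons of 3723 and 4064 bases match no exon of these models exactly and overlap 2 and 3 of them. The ESRP2 variant, with 14 exons, had 2022 and 3033 counts, or 54.3% and 52.9%, and each of its 13 junctions is in the matched models of that gene. Its exon of 1769 bases matches no annotated exon exactly and overlaps 2. Such variants were assembled from these reads, and whether they are made as RNAs was not tested.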

How the results depend on the processing

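Other scalings (library total, DESeq2 size factors, protein-coding total), prior counts and filters left the direction of each of the 10 log2 ratios as it was. GRHL2 reversed to 0.16 with TPM, 0.14 with FPKM and 0.91 with its highest transcript only. ESRP2 went to 0.17 with TPM and 0.15 with FPKM. With the highest transcript only, GRHL1 was -2.86, OVOL1 0.23, ESRP1 0.33 and ESRP2 0.34. The highest transcript is the model with the most unscaled counts in both libraries together, so these values depend on that pick. For GRHL1 it had 819 counts in the control and 163 in the other, and the next model had 0 and 964. For GRHL2 it had 2108 and 5791, while the leading model of the control had 3964 and 1837. With halved counts the intervals of GRHL2 (-0.063), ESRP2 (0.073), SNAI1 (0.49) and SNAI2 (-1.02) reached 1, which left 1 of the 10 genes above 1, 1 below, and 0 past 1.5-fold lower. Requiring 200 counts also left 0 past 1.5-fold lower. Among the lists, other EMT factors had 6 intervals above 1 and 0 below in the table with assembled transcripts, 1 below with library totals only and 0 below with halved counts. ESRP splicing targets had 4 above in the table with assembled transcripts. At 200 counts, mesenchymal genes had 2 below, SNAI protein control 1 below and microRNA hosts 0 above, and SNAI protein control also had 1 below with library totals only. The microRNA hosts' median reversed to -0.22 with no filter and -0.46 at 200 counts. Antisense neighbours had 1 above with no filter. Where no construction of the alternative shows it, the cause was not tested. CTNND1 and CD44 shares in the transcript table with assembled models, chosen after seeing the data, were the same as reported. On TPM, CTNND1 coding start 3 held 88.8% and 83.5%, inside its count intervals. The CD44 model with v8 to v10 held 55.1% and 46.7% on TPM, below its count interval in each library. TPM and FPKM give no interval. No paired analysis was possible because each group has 1 library with no replicate number. Depth limits SNAI1, SNAI2, ZEB1 and OVOL2 most, with 15 to 141 counts.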

Other observations

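Of 8 basal or myoepithelial markers, 3 were measured. OXTR, the oxytocin receptor, had 1502 and 1716 counts, for a ratio of 0.779 (0.727 to 0.836), and KRT17 66 and 95 and a ratio of 0.982 (0.710 to 1.37). ACTA2 had 65 and 84 counts, for a ratio of 0.881 (0.630 to 1.24). TP63, the master factor of basal epithelium, had 38 and 8 counts, for a ratio of 0.144 (0.0579 to 0.312). KRT5, KRT14 and CNN1 had 0 counts in both libraries. The summed level of the list was 9.32 TPM in the control library and 7.65 TPM in the knockdown-labelled library, of which OXTR gave 7.43 and 5.95. These markers were named after their values were seen.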
